A study of Mus musculus with 15 samples.

Results

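The genes described here encode enzymes that modify and crosslink collagen, namely the lysyl oxidase family (Lox, Loxl1, Loxl2, Loxl3 and Loxl4), the lysyl hydroxylases (Plod1, Plod2 and Plod3) and a pair of prolyl 4-hydroxylase alpha subunits (P4ha1 and P4ha3). They were taken by symbol, as 3 enzyme families with no threshold on measured values but with earlier results of these data known, and are 10 of the 56748 genes counted. Each was found once in the count table.

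Collagen is modified before and after it leaves the cell. In the endoplasmic reticulum, prolyl 4-hydroxylases hydroxylate proline residues, which stabilizes the triple helix, and lysyl hydroxylases hydroxylate lysine residues, which fixes the chemistry of later crosslinks. Outside the cell, the copper-dependent lysyl oxidases convert lysine and hydroxylysine side chains to aldehydes that condense into covalent bonds between collagen molecules, and lysyl oxidase and LOXL1 also crosslink elastin. These bonds stiffen scar tissue in kidney and lung.

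RNA was measured in kidneys and lungs of wild-type male C57Bl/6 mice, with 3 libraries in each of 5 groups. WTK mice received vehicle, and IgGK and LepK mice received a single intraperitoneal dose of folic acid (200 mg/kg), which injures the tubules, at 10 to 12 weeks of age. IgGK mice were then given control IgG and LepK mice LepAb, a human monoclonal antibody that neutralizes leptin, at 10 mg/kg every other day from day 1. By the study's methods these injections ended before day 28, when kidneys were taken. IgGL and LepL mice, 12 weeks old, received bleomycin (1.5 units/kg) into the trachea and control IgG or LepAb at 10 mg/kg, and lungs were taken on day 14. Lungs of vehicle-treated mice were not analysed here, so the effect of bleomycin itself was not measured, and organ, injury and day cannot be told apart. The labels give WTK mice vehicle and do not state whether they received IgG, so IgGK against WTK measured folic acid with control IgG against vehicle kidneys. LepK against IgGK and LepL against IgGL measured the effect of the antibody in an injured organ.

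Total counts ranged from 25913969 to 38924788 per library, and all 15 libraries carry the same batch label. Normalized CPM are counts set against library size with TMM factors of the organ, and RPKM are also divided by gene length, with factors over all 15 libraries. Genes passed as called when the log2 fold change was over 0.5 in size and the edgeR adjusted p under 0.05, and errors of log2 fold changes are standard errors. Libraries of a group are taken as separate mice, which the study states for the lung groups and the labels do not state for the kidney groups, where the p-values may measure technical spread only. The TMM factors were 0.844 to 0.858 in WTK, 0.970 to 1.05 in LepK and 1.14 to 1.18 in IgGK. With library-size scaling in their place, the median log2 fold change of all genes in IgGK against WTK moved from 0.04 to 0.48, and the share of calls that were higher moved from 58.2% to 86.9%. That share moved from 42.2% to 15.7% in LepK against IgGK and from 67.6% to 90.3% in LepK against WTK. Summed adrenal cortex markers were 632 and 813 normalized CPM in IgGK replicates 1 and 2 and 16.6 in IgGK replicate 3, and 5.43 to 7.64 in the other kidney libraries. The defining adrenal genes Cyp11b1, Cyp21a1 and Cyp11b2 had no count in any WTK library. All 8 proximal tubule markers were present in the kidneys, and all 6 alveolar type 2 markers in the lungs.

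The lysyl oxidases share a catalytic domain at the carboxyl end of the protein. To show how alike the family members are at the site that binds copper, the stretch of coding sequence around it is given for Loxl1, Loxl2, Loxl3 and Loxl4 from GENCODE M21 transcripts (GRCm38). Capitals mark the codons of the copper-binding site, searched as histidine, any amino acid, histidine, tyrosine and histidine, and the search found 1 such site in the frame of each coding sequence.
Loxl1, coding bases 1423 on: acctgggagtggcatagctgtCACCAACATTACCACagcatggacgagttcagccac
Loxl2, coding bases 1861 on: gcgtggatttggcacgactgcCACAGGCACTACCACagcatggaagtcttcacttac
Loxl3, coding bases 1801 on: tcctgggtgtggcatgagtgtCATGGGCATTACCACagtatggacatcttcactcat
Loxl4, coding bases 1816 on: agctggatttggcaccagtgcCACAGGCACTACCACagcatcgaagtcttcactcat
Over these 57 bases, Loxl1 was identical to Lox at 54 positions, Loxl2 to Loxl4 at 49, and Loxl1 to Loxl2 at 38. Across the whole transcripts, the longest run of bases shared exactly by any pair was 11 to 32 in the LOX family, 15 to 24 in the PLOD family and 13 between P4ha1 and P4ha3.

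RefSeq promoter sequences (GRCm38.p6) were at hand for 5 of the 10 genes. The 250 bases before the annotated start are printed for P4ha3, Loxl4 and Plod1, whose RNA was lower in LepL than in IgGL lungs, and for P4ha1, whose RNA was not called in any comparison. Capitals mark matches, on either strand, to GGGCGG (the GC box), ACGTG and GCGTG (core letters of hypoxia response elements), TATAAA (the TATA box), TTCNNNGAA (STAT sites) and TGANTCA (AP-1 sites).
P4ha3, chr7:100285270-100285519 (+ strand): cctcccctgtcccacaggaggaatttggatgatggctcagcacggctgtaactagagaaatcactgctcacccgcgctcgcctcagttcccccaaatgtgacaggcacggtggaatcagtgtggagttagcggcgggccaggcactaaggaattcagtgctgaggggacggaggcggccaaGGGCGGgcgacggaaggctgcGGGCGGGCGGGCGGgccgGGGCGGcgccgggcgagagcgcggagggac
Loxl4, chr19:42612807-42613056 (- strand): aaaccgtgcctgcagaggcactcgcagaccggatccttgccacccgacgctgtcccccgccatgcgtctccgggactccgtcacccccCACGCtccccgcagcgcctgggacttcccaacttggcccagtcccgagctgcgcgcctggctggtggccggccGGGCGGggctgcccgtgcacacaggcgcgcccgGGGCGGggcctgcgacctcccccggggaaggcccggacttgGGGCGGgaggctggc
Plod1, chr4:147936777-147937026 (- strand): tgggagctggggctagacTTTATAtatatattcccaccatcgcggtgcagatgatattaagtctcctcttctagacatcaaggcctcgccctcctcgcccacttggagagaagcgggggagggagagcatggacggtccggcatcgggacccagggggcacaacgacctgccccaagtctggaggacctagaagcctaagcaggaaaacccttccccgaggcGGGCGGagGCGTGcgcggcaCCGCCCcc
P4ha1, chr10:59323046-59323295 (+ strand): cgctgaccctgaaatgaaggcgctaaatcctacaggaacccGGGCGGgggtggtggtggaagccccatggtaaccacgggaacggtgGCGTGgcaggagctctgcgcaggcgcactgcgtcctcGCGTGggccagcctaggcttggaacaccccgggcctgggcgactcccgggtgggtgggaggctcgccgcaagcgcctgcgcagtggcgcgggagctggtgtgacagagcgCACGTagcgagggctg
GGGCGG occurred 5 times in P4ha3, where matches overlapped, 3 times in Loxl4, 2 times in Plod1 and 1 time in P4ha1, and 32.7% of 32851 promoters of this length held it. P4ha1 had 1 ACGTG and 2 GCGTG, Loxl4 and Plod1 had 1 GCGTG each, and P4ha3 had neither. Plod3, like P4ha1 not called in any comparison, also had a sequence at hand, which is not printed. Its window held no GGGCGG, 1 ACGTG and 3 GCGTG. The shares of all promoters with these letters were 16.6% for ACGTG and 28.2% for GCGTG. Plod1 also held TATAAA 1 time (12.4% of promoters). No match to TTCNNNGAA (7.02%) or TGANTCA (6.75%) lay in these windows. The GC content was 67.2% in P4ha3, 76% in Loxl4, 61.6% in Plod1 and 69.6% in P4ha1, against a median of 52.4%.

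In kidneys injured by folic acid, every lysyl oxidase was higher than in vehicle kidneys, and of the hydroxylases only Plod2 was called. Lox rose 11.2-fold, Loxl2 5.17-fold, Loxl3 4.95-fold, Loxl1 2.68-fold, Loxl4 1.77-fold and Plod2 1.73-fold. Thus 6 of the 9 genes tested were called higher in IgGK against WTK, where 21.7% of the 19593 genes tested were. None was called lower. In 8 genes, all IgGK libraries lay above all WTK libraries, as in 32.5% of all genes tested. P4ha3 had too few counts in kidney to be tested.

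Lox encodes lysyl oxidase, which crosslinks fibrillar collagen and elastin. It was at 2.41, 3.28 and 4.44 normalized CPM in the WTK libraries, at 38.1, 41.3 and 34.9 in the IgGK libraries and at 13.6, 24.7 and 15.9 in the LepK libraries. The 3 groups did not overlap, with LepK between the others. The log2 fold change of IgGK against WTK was 3.48 ± 0.24 (edgeR adjusted p = 1.90e-07). Gm41724, a noncoding gene on the opposite strand, overlaps Lox and had at most 114 counts in any library. Lox had 58 to 123 counts in WTK, 1156 to 1444 in IgGK and 413 to 738 in LepK. In lung it had 15840 to 28234 counts in IgGL and 5531 to 9985 in LepL. Because the libraries did not keep the strand, reads in the overlap cannot be assigned to either gene.

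Loxl2 and Loxl3 encode secreted oxidases with scavenger receptor domains, and LOXL2 acts on the collagen IV of basement membranes. Loxl2 was at 4.86, 4.78 and 5.30 normalized CPM in WTK, 26.2, 26.1 and 25.1 in IgGK and 10.1, 16.1 and 14.99 in LepK. Loxl3 was at 2.70, 2.84 and 3.03 in WTK, 15.1, 16.0 and 11.4 in IgGK and 7.47, 10.4 and 9.19 in LepK. For both genes every IgGK library lay above every LepK library and every LepK library above every WTK library. The log2 fold changes of IgGK against WTK were 2.37 ± 0.16 for Loxl2 and 2.31 ± 0.18 for Loxl3 (edgeR adjusted p = 1.69e-07 and 5.20e-07). Part of Loxl3 overlaps Htra2, a protein-coding gene on the other strand, over 1297 bases. Htra2 had 484 to 959 counts per library, against 65 to 84 for Loxl3 in WTK. Reads in this overlap cannot be assigned to either gene.

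Loxl1, which encodes the oxidase tied to elastic fibers, was the most abundant family member per length in vehicle kidney, at 4.72 ± 0.49 RPKM (SD, n = 3) against 0.76 ± 0.23 for Lox. Its normalized CPM were 13.4, 14.02 and 16.2 in WTK, 35.7, 43.8 and 37.7 in IgGK and 21.4, 27.5 and 28.4 in LepK, again without overlap between groups. The log2 fold change of IgGK against WTK was 1.42 ± 0.12. Loxl4, the family member with the lowest level per length in all 5 groups, was at 1.66, 1.82 and 1.01 normalized CPM in WTK and 1.88, 2.69 and 3.35 in IgGK. The highest WTK and the lowest IgGK library nearly touched, and the log2 fold change was 0.82 ± 0.31 (edgeR adjusted p = 0.0414). Loxl4 kept its call in 2 of the 6 fits that left out a library.

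Plod2 encodes the lysyl hydroxylase that acts on the telopeptides of collagen, the ends where crosslinks form. It was at 24.2, 26.3 and 21.1 normalized CPM in WTK, 39.4, 44.0 and 40.3 in IgGK and 26.01, 28.4 and 35.8 in LepK. All IgGK libraries were above all WTK and all LepK libraries, whereas WTK and LepK overlapped. The log2 fold change of IgGK against WTK was 0.79 ± 0.12 (edgeR adjusted p = 9.74e-05). Plod1 and Plod3 encode hydroxylases of the helical part of collagen, and PLOD3 also adds sugars to hydroxylysine. Plod3 had a log2 fold change of 0.43 ± 0.09 (edgeR adjusted p = 0.00104), which is under the fold threshold, and Plod1 of 0.14 ± 0.06 (edgeR adjusted p = 0.0890). Plod3 overlaps Znhit1 on the other strand, which had 1033 to 1391 counts per library, against 1069 to 1259 for Plod3 in WTK. Reads shared by this pair cannot be assigned either.

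P4ha1 encodes the main catalytic subunit of collagen prolyl 4-hydroxylase. It was at 44.99, 50.5 and 44.9 normalized CPM in WTK, 44.98, 43.8 and 37.6 in IgGK and 46.4, 42.2 and 46.2 in LepK, and the 3 groups overlapped. Its log2 fold change of IgGK against WTK was -0.15 ± 0.08 (edgeR adjusted p = 0.148) and turned to 0.29 with library-size scaling. P4ha3, a further catalytic subunit, had no count in the 3 WTK libraries, 0, 14 and 4 counts in IgGK and 4, 0 and 2 in LepK. A count of 0 allows up to 3 counts, or 0.0928 to 0.112 CPM in these kidney libraries, counting error only.

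**Figure D1:**
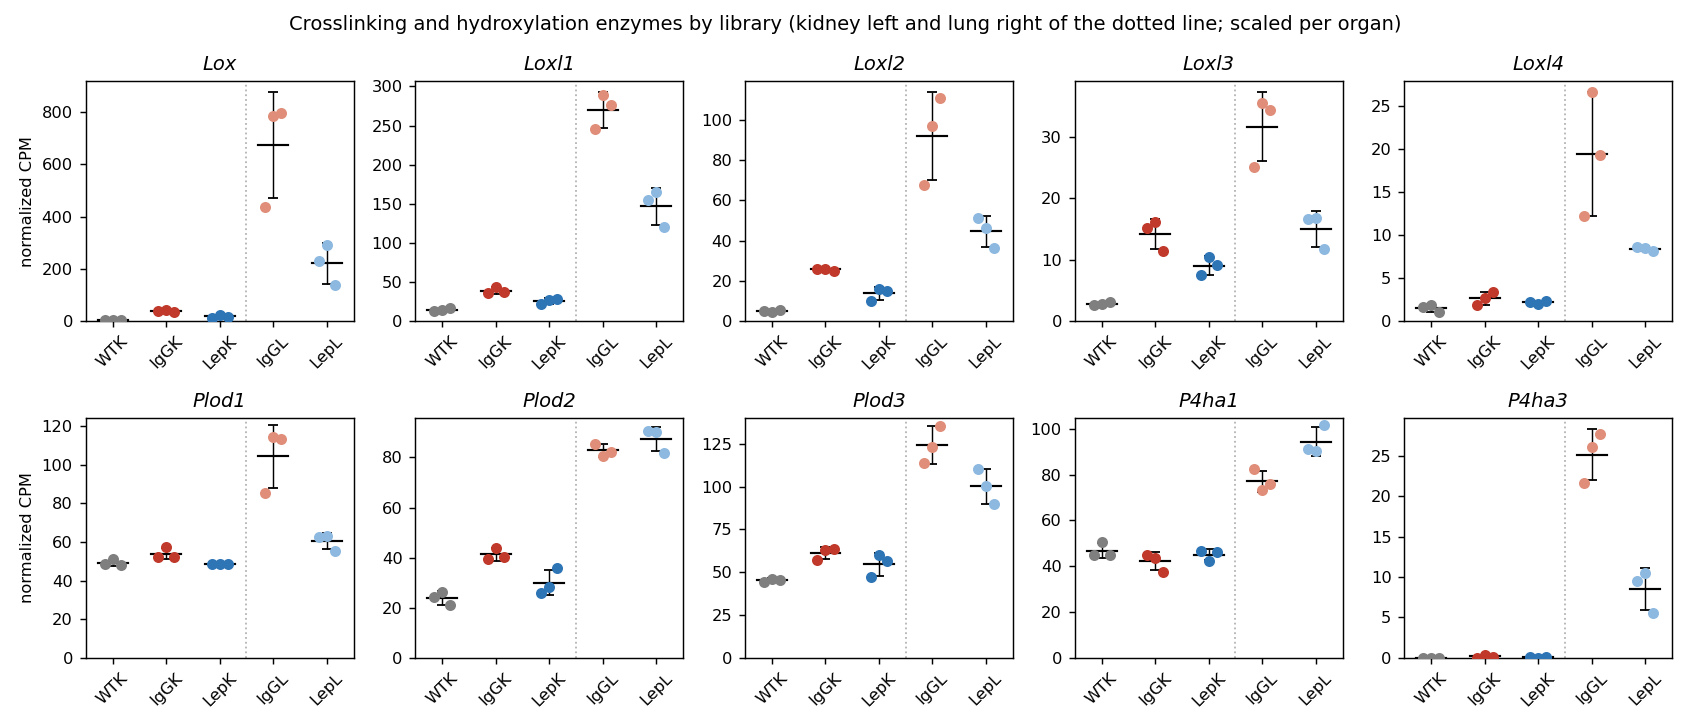
Normalized CPM (y axis, linear, scaled within each organ) of the 10 genes in each library of the 5 groups (x axis), with 1 point per library and bars for the mean and SD of 3 libraries. Lox ran from 2.41 to 4.44 in WTK and from 34.9 to 41.3 in IgGK, while P4ha1 stayed between 37.6 and 50.5 across the kidney libraries.

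In folic acid kidneys, LepAb was accompanied by lower RNA of 4 lysyl oxidases, and no hydroxylase was called. Lox was 2.10-fold lower in LepK than in IgGK, Loxl2 1.88-fold, Loxl3 1.57-fold and Loxl1 1.52-fold. These 4 of 9 tested genes were called lower, against 5.99% of all genes tested, and none was called higher. The log2 fold changes were -1.07 ± 0.20 for Lox, -0.91 ± 0.15 for Loxl2, -0.65 ± 0.17 for Loxl3 and -0.60 ± 0.12 for Loxl1, with edgeR adjusted p from 0.00129 to 0.0154. The value was -0.27 ± 0.30 for Loxl4 (edgeR adjusted p = 0.588). For Plod2 it was -0.46 ± 0.12 (edgeR adjusted p = 0.0154), just under the fold threshold. Plod1 (-0.15 ± 0.06), Plod3 (-0.16 ± 0.09) and P4ha1 (0.09 ± 0.08) were not called, and the sign of P4ha1 turned with library-size scaling (-0.09). In 6 genes, all LepK libraries lay below all IgGK libraries, as they did in 19.5% of all genes tested.

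The IgGK libraries are shared by both comparisons above, and 2 of them, replicates 1 and 2, carried the most adrenal cortex RNA. IgGK replicate 3, at 16.6 normalized CPM of summed markers, also lay above the 5.43 to 7.64 of the WTK and LepK libraries. Without IgGK replicates 1 and 2, a choice made after seeing the data, edgeR called 0 of the 9 genes in LepK against IgGK (5 at an unadjusted p under 0.05) and 664 genes of all. With all libraries, DESeq2 called the same 4 genes as edgeR. In the edgeR fit without IgGK replicates 1 and 2, the log2 fold changes were -0.94 for Lox, -0.86 for Loxl2, -0.54 for Loxl1 and -0.33 for Loxl3. A single IgGK library remained in that fit and was assumed to vary like the other groups. In IgGK against WTK the same 6 genes were called without these libraries. Without LepK replicate 1, which had the lowest Lox, Loxl1, Loxl2 and Loxl3 of its group, Lox and Loxl2 were the 2 genes still called in LepK against IgGK.

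In LepK kidneys, 4 lysyl oxidases were higher than in vehicle kidneys. Lox was 5.32-fold, Loxl3 3.15-fold, Loxl2 2.75-fold and Loxl1 1.77-fold higher in LepK than in WTK, and these 4 of 9 genes were called, against 15.2% of all genes tested. All LepK libraries lay above all WTK libraries in 6 genes, as in 25.6% of all genes tested. The edgeR adjusted p of the called genes ranged from 1.49e-05 to 0.000277. The log2 fold change was 0.33 ± 0.12 for Plod2 and 0.27 ± 0.09 for Plod3, both under the fold threshold. Loxl4, at 0.55 ± 0.31 (edgeR adjusted p = 0.190), was not called, nor were Plod1 (-0.02 ± 0.06) and P4ha1 (-0.06 ± 0.08), whose signs turned with library-size scaling to 0.25 and 0.20.

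In bleomycin lungs, LepAb was accompanied by lower RNA of all 5 lysyl oxidases, of Plod1 and of P4ha3. Lox was 3.05-fold lower in LepL than in IgGL, P4ha3 2.94-fold, Loxl4 2.30-fold, Loxl3 2.11-fold, Loxl2 2.06-fold, Loxl1 1.84-fold and Plod1 1.73-fold. These 7 of 10 genes were called lower, against 2.36% of the 19617 genes tested, with edgeR adjusted p from 0.0327 to 0.0418, and none was called higher. DESeq2 called the same 7 genes. With a block for the replicate number, edgeR called 0 of the 7 genes and 4 genes of all. The calls also depended on having all libraries. Without IgGL replicate 1 the 7 genes were called, but without IgGL replicate 2 or 3, or without LepL replicate 1, 2 or 3, edgeR called 0 of them, with 7 to 9 at an unadjusted p under 0.05 and 0 to 22 genes called of all. All 7 genes had lower values in LepL in each of these fits.

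Lox was at 439, 784 and 796 normalized CPM in IgGL and 231, 292 and 139 in LepL. IgGL replicate 1 was the lowest of its group but lay above every LepL library, and the log2 fold change was -1.61 ± 0.30. Loxl1 was at 245, 289 and 276 in IgGL and 155, 165 and 120.5 in LepL (-0.88 ± 0.14). Loxl2 was at 67.9, 96.9 and 111 in IgGL and 51.3, 46.2 and 36.3 in LepL (-1.04 ± 0.19). Among the LepL libraries, every LOX gene was lowest in replicate 3, as were Plod1 and P4ha3. Loxl3 was at 25.1, 35.4 and 34.3 in IgGL and 16.6, 16.8 and 11.7 in LepL (-1.08 ± 0.19), and Loxl4 at 12.2, 26.6 and 19.3 in IgGL and 8.65, 8.44 and 8.14 in LepL (-1.20 ± 0.26). IgGL replicate 1 had the lowest value of each LOX gene among the IgGL libraries.

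The hydroxylases split in lung. P4ha3 was at 21.6, 26.2 and 27.7 normalized CPM in IgGL and 9.57, 10.5 and 5.59 in LepL (-1.56 ± 0.23), with no overlap. P4ha1 was at 82.3, 73.3 and 75.8 in IgGL and 91.4, 90.3 and 101.7 in LepL, and although its groups did not overlap either, with LepL the higher, it was not called (0.29 ± 0.10, edgeR adjusted p = 0.10). The printed promoters of this pair thus belong to a gene called lower in LepL and to a gene that was not called. Plod1 was at 85.5, 114 and 113 in IgGL and 62.6, 63.1 and 55.5 in LepL (-0.79 ± 0.13). Plod2, at 85.5, 80.7 and 82.2 in IgGL and 90.5, 90.0 and 81.8 in LepL, overlapped between groups (0.08 ± 0.09). Plod3 had a log2 fold change of -0.31 ± 0.11 (edgeR adjusted p = 0.125). All LepL libraries lay below all IgGL libraries in 8 of the 10 genes, as in 17.3% of all genes tested, and above them in 1, P4ha1, as in 16% of all genes tested.

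**Figure D2:**
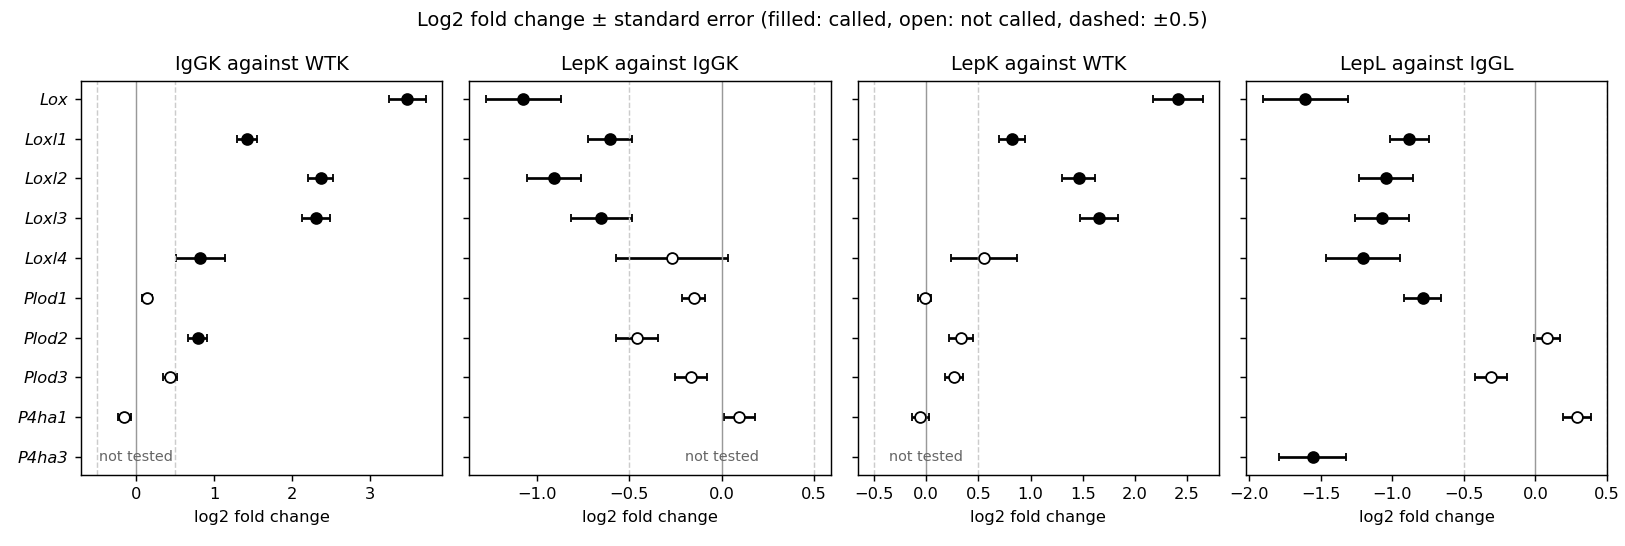
Log2 fold change (x axis) with its standard error for the 10 genes (y axis) in 4 comparisons, from edgeR fits of the 9 kidney and the 6 lung libraries, where filled points pass both thresholds, dashed lines mark 0.5 and -0.5, and each panel has its own x axis. Lox had the largest value in each panel, 3.48, -1.07, 2.41 and -1.61, and P4ha3 was not tested in kidney.

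The effect of LepAb in kidney was tested against that in lung. Plod1 was the 1 gene of 10 whose effect differed (edgeR adjusted p under 0.05, no fold threshold), where 7.12% of all 21488 genes tested did. Its log2 fold change was higher in kidney than in lung by 0.67 ± 0.15 (edgeR adjusted p = 0.0256), from -0.15 in kidney and -0.79 in lung, and it was called in 6 of the 12 fits that left out a library. For Plod2 the difference was -0.51 ± 0.15 (edgeR adjusted p = 0.0564). This gene was called beside Plod1 by DESeq2, without a filter on low counts and with a filter at a mean of 1 CPM, and in place of Plod1 with library-size scaling. The difference was 0.56 ± 0.39 for Lox, 0.31 ± 0.19 for Loxl1, 0.45 ± 0.27 for Loxl3 and 0.96 ± 0.38 for Loxl4, none of them called. For Loxl2 it was 0.16 ± 0.27, and the sign turned with library-size scaling (-0.08).

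The makeup of each family also differed between groups. Summed over the LOX family, RNA per length was 7.51 ± 0.72 RPKM in WTK, 30.3 ± 2.43 in IgGK and then 17.8 ± 3.19 in LepK (SD, n = 3), and in lung it was 226 ± 49.6 in IgGL against 94.1 ± 22.0 in LepL. Lox made up 9.95% ± 2.10 of that sum in WTK, 28.2% ± 0.90 in IgGK and 22.5% ± 3.94 in LepK, and Loxl1 62.8% ± 0.88, 41.8% ± 1.97 and 47.2% ± 3.42. In lung, Lox was the leading member in IgGL, at 55.3% ± 5.37, and in LepL it was level with Loxl1, at 43.5% ± 5.43 against 43.3% ± 3.89. Lox and Loxl1 shares of LepL therefore do not differ beyond their spread. Loxl4 was 1.80% to 5.17% of the sum as group means.

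The PLOD family was at 23.3 ± 0.90 RPKM in WTK, 31.3 ± 1.64 in IgGK and 26.6 ± 2.22 in LepK, and at 52.4 ± 3.60 in IgGL against 42.7 ± 3.14 in LepL. Plod3 held 46.2% to 48.5% of it in all 5 groups as means. Between IgGL and LepL the Plod1 share went from 26.4% ± 2.56 to 18.9% ± 0.51 and the Plod2 share from 26.5% ± 2.68 to 34.3% ± 0.94, without overlap. P4ha1 and P4ha3 together were at 24.1 ± 0.39 RPKM in IgGL and 23.2 ± 0.73 in LepL. P4ha2, a further alpha subunit, is not part of this sum. The P4ha3 share of the sum was 30.0% ± 3.77 in IgGL and 10.7% ± 3.49 in LepL, and under 1.19% in every kidney library. With 3 libraries against 3, the smallest exact permutation p is 0.10, so shares and ratios were not tested.

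**Figure D3:**
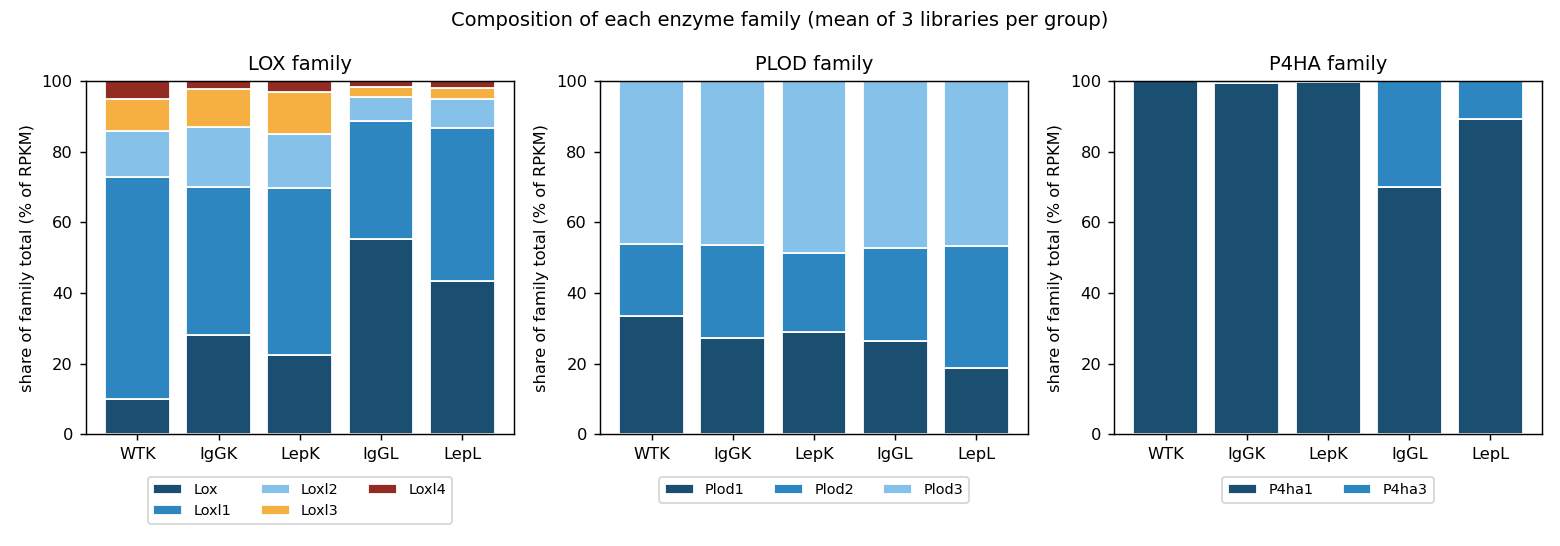
Share of each family's summed RPKM (y axis, percent from 0 to 100) held by each member, as the mean of 3 libraries in each of the 5 groups (x axis). The P4HA sum is of P4ha1 and P4ha3 alone, without P4ha2. Lox held 9.95% in WTK and 28.2% in IgGK, and P4ha3 is visible in lung, at 30.0% in IgGL and 10.7% in LepL.

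Enzyme RNA was set against that of fibrillar collagens, as RPKM per 1000 RPKM of Col1a1, Col1a2 and Col3a1 summed. Other substrates, such as collagen IV for LOXL2 and elastin for lysyl oxidase and LOXL1, are not in this sum. That sum was 11.3 ± 1.73 RPKM in WTK, 139 ± 11.1 in IgGK and 55.8 ± 17.1 in LepK, against 691 ± 49.4 in IgGL and 326 ± 68.2 in LepL for lung. The ratio in IgGK lay below every WTK library for 8 of the 10 genes, as it did for 93.1% of all genes tested, so this count is near the background. Lox stood outside it, at 66.4 ± 13.6 in WTK and 61.3 ± 0.93 in IgGK, where the groups overlapped. Loxl2 went from 88.1 ± 7.83 to 36.8 ± 2.27 and P4ha1 from 1098 ± 214 to 78.9 ± 5.65. In LepK against IgGK the ratio was higher without overlap for 8 genes (82.5% of all genes tested), and again Lox overlapped, at 73.2 ± 10.2 in LepK. In LepL against IgGL it was higher without overlap for 5 genes (80% of all genes tested), namely Loxl1, Plod1, Plod2, Plod3 and P4ha1, and lower for P4ha3 (0.26% of all genes tested). P4ha3 was at 9.71 to 11.4 in IgGL and 6.47 to 8.78 in LepL. The ratios of Lox, Loxl2, Loxl3 and Loxl4 overlapped between the lung groups.

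**Figure D4:**
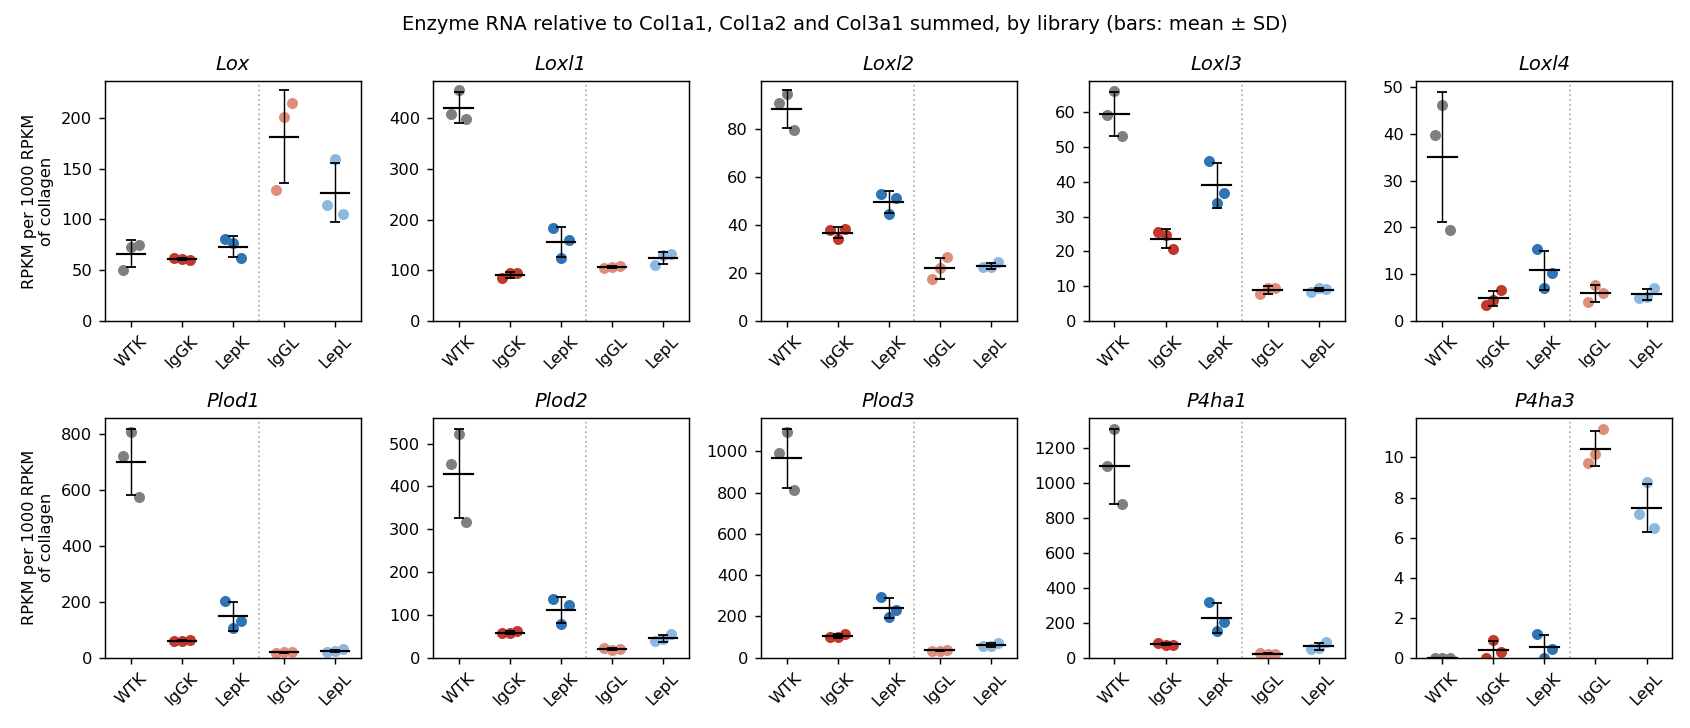
RNA of each enzyme per 1000 RPKM of Col1a1, Col1a2 and Col3a1 summed (y axis, linear) in each library of the 5 groups (x axis), with bars for the mean and SD of 3 libraries. Lox stayed near 61.3 to 73.2 as group means across the kidney groups, while P4ha1 went from 1098 in WTK to 78.9 in IgGK.

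Other genes of collagen biosynthesis were counted in a list of 22 that covers P4ha2, P4hb, chaperones, prolyl 3-hydroxylases, collagen galactosyltransferases and propeptide proteases. In IgGK against WTK 9 were called higher and 6 lower, beside 21.7% and 15.6% of all genes tested. In LepK against IgGK 0 were higher and 5 lower, beside 4.38% and 5.99%. In LepK against WTK 6 were higher and 2 lower, beside 15.2% and 7.3%, and in LepL against IgGL 0 higher and 4 lower, beside 1.78% and 2.36%. The list's median log2 fold changes were -0.10, -0.11, 0.05 and -0.35, beside 0.04, -0.01, 0.03 and 0.00 over all genes tested. Adamts2, which cleaves the N-propeptide of procollagen, was at 5.63 ± 1.78 normalized CPM in WTK, 34.2 ± 4.74 in IgGK, 15.3 ± 2.76 in LepK and, for the lungs, 233 ± 27.2 in IgGL against 112 ± 20.04 in LepL, and was called in all 4 comparisons. So was Fkbp10, a chaperone that works with lysyl hydroxylase in the telopeptides, with log2 fold changes of 2.08 ± 0.18, -0.78 ± 0.17, 1.30 ± 0.18 and -1.12 ± 0.19. In lung the call of Adamts2 was kept in 2 of the 6 fits that left out a library (without IgGL replicate 1 or LepL replicate 1) and that of Fkbp10 in 1 (without IgGL replicate 1). Bmp1, the protease that removes the C-propeptide and activates lysyl oxidase, was called in the 3 kidney comparisons (2.32 ± 0.13, -0.83 ± 0.13 and 1.49 ± 0.13) and not in lung (-0.39 ± 0.12). Serpinh1, the collagen chaperone HSP47, had log2 fold changes of 1.58 ± 0.10, -0.68 ± 0.10 and 0.90 ± 0.10 in kidney and -0.36 ± 0.12 in lung, where it was not called.

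The substrates were described in the same way. Of 7 fibrillar collagen genes, 6 were called higher in IgGK against WTK (21.7% of all genes tested), 5 lower in LepK against IgGK (5.99%), 5 higher in LepK against WTK (15.2%) and 6 lower in LepL against IgGL (2.36%). Of 6 genes of elastic fibers, the other substrate of lysyl oxidase, 4, 3, 4 and 2 were called in the same order and directions. Eln, which encodes elastin, had log2 fold changes of 1.81 ± 0.15 in IgGK against WTK, -0.27 ± 0.14 in LepK against IgGK (not called) and -1.52 ± 0.27 in LepL against IgGL. Fbn1, which encodes fibrillin-1, changed by 2.47 ± 0.11, -1.34 ± 0.10 and -1.34 ± 0.19. In lung the calls of Col1a1, Col1a2, Col3a1, Col5a1, Col5a2, Eln and Fbn1 were each kept in 1 of the 6 fits that left out a library, the fit without IgGL replicate 1.

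Response genes of signals known to act on these enzymes were counted as well. TGF-beta raises LOX and PLOD2 in fibroblasts, and of 8 response genes 6 were called higher in IgGK against WTK (21.7% of all genes tested), 5 lower in LepK against IgGK (5.99%), 5 higher in LepK against WTK (15.2%) and 2 lower in LepL against IgGL (2.36%). LOX, PLOD2 and P4HA1 are also targets of hypoxia-inducible factors. Of 10 hypoxia-inducible genes, 1 was called higher and 5 lower in IgGK against WTK, beside 21.7% and 15.6% of all genes tested. In LepK against IgGK 1 was higher (4.38%), in LepK against WTK 3 were lower (7.3%), and in LepL against IgGL 3 were lower (2.36%). Vegfa, an angiogenic growth factor, was lower in IgGK than in WTK (-1.03 ± 0.07), as was the carbonic anhydrase gene Car9 (-1.78 ± 0.23), while Pfkfb3, a regulator of glycolysis, was higher (0.73 ± 0.10).

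Genes whose log2 CPM followed each enzyme most closely across the 9 kidney libraries were sought among 13811 genes. Loxl2 had Col1a2 (Pearson r = 0.999), Lox had Cpxm1 and Kcnt2 (both r = 0.998), and Plod2 had Pld3 (r = 0.994) and Pola1 (r = 0.991). For Loxl1 they were Coro1a and Apobec1, for Loxl3 Tubb5 and Plscr3, for Plod1 Nans and Skp2, and for Plod3 Chmp2b and Irak3. The values were lowest for Loxl4 (Rfc3, r = 0.932) and P4ha1 (Wipf3, r = 0.933). The 9 points come from 3 groups that differ, share each library's depth and are given as a description.

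In bulk tissue, fewer cells of a type and less RNA per cell cannot be told apart. Markers of several cell types moved with the enzymes, and those of others did not. Of all genes tested, 21.7% were called higher and 15.6% lower in IgGK against WTK. In LepK against IgGK these shares were 4.38% and 5.99%, and in LepL against IgGL 1.78% and 2.36%. Fibroblast markers summed to 215 to 302 normalized CPM in WTK, 592 to 649 in IgGK, 376 to 473 in LepK, and in lung to 2248 to 2510 in IgGL and 1963 to 2888 in LepL. Of the 10, 8 were called higher in IgGK against WTK, 6 lower in LepK against IgGK and 2 lower in LepL against IgGL, and none was at 0. Macrophage markers summed to 191 to 218 in WTK, 1688 to 2157 in IgGK and 600 to 892 in LepK, with Marco at 0 in WTK. In kidney 8 of the 9 tested macrophage markers were called higher in IgGK against WTK and 8 lower in LepK against IgGK. In lung they summed to 3783 to 6798 in IgGL and 8124 to 8429 in LepL, with 2 of 10 called lower and 0 higher. The median log2 fold change of these 10 markers was -0.67, so the higher sum did not hold for most of them singly. Alveolar type 2 markers summed to 6531 to 12045 in IgGL and 17394 to 23668 in LepL, with 3 of 6 called higher and none at 0. Neutrophil markers summed to 150.0 to 378 in IgGL and 56.7 to 88.8 in LepL, with 4 of 6 called lower and none at 0. Skeletal muscle markers summed to 238 to 830 in IgGL and 821 to 1926 in LepL, with 0 of 6 called by edgeR and none at 0. Adipocyte markers summed to 88.9 to 201 in WTK, 490.0 to 811 in IgGK and 214 to 455 in LepK, with 5 of 6 called higher and 1 lower in IgGK against WTK and 1 lower in LepK against IgGK. Adipocyte markers in lung summed to 60.7 to 132 in IgGL and 170.1 to 257 in LepL, with 2 of the 5 tested called higher. Proximal tubule markers summed to 52197 to 54177 in WTK, 13076 to 20483 in IgGK and 28114 to 37972 in LepK, with 8 of 8 called lower in IgGK against WTK and 7 higher in LepK against IgGK. Injured tubule markers summed to 355 to 372 in WTK, 6151 to 6490 in IgGK and 2436 to 3769 in LepK, with 6 of 6 called higher and then 6 lower. In the lungs the same 6 genes summed to 2823 to 6091 in IgGL and 1210 to 1908 in LepL, with 1 called lower. T cell markers summed to 6.65 to 9.48 in WTK, 29.4 to 55.6 in IgGK and 22.8 to 34.2 in LepK, with 6 of 6 called higher in IgGK against WTK and 1 lower in LepK against IgGK. Neutrophil markers in kidney summed to 2.01 to 2.24 in WTK, 16.9 to 25.5 in IgGK and 6.85 to 9.56 in LepK, with all 4 that were tested called higher and then lower, and with Ly6g at 0 in WTK and IgGK. Airway epithelium markers summed to 7348 to 9291 in IgGL and 12193 to 23804 in LepL, with 2 of 6 called higher. Smooth muscle and myofibroblast markers summed to 83.2 to 96.3 in WTK, 118 to 132 in IgGK and 124 to 137 in LepK. Of the 6, 4 were called higher and 1 lower in IgGK against WTK, and 1 higher in LepK against IgGK. In lung they summed to 682 to 848 in IgGL and 476 to 704 in LepL, with 1 called lower. Of 6 endothelial markers, 2 were called lower in IgGK against WTK, and 0 were called in LepK against IgGK or LepL against IgGL. The part of these cells in the results was not tested.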

How the data were processed

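RNA was sequenced from 9 kidney and 6 lung libraries, which were poly(A)-enriched and non-directional, with 3 per group. The deposited table, a matrix from Novogene per the study's methods, holds whole-number read counts per gene, not normalized by the authors, FPKM values made by the authors before deposit, gene lengths and positions. The submitters' processing notes name the build GRCm39 (mm39) and DESeq2; the aligner and counter are not given in the sources used here. The authors' group means, log2 fold changes and p-values were not used. Groups came from the title, tissue and treatment labels. A further label line that names a column disagrees with them and was not used, and the column of LepL replicate 3 carries a suffix the others lack.

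Tests were run with edgeR 4.0.16 (with limma 3.58.1) and, as an alternative, DESeq2 1.42.0 in R 4.3.3. Genes passed filterByExpr (minimum count 10, minimum total 15), counts were scaled by TMM, and edgeR quasi-likelihood fits (glmQLFit and glmQLFTest) covered the 9 kidney libraries (6 residual degrees of freedom), the 6 lung libraries (4) and the 12 libraries of injured organs. P-values were Benjamini-Hochberg adjusted over all genes tested. The standard error is the log2 fold change over the square root of F. The procedure was tested on simulated counts in which few genes changed. A shift as broad as that between the kidney groups was not simulated. RPKM were computed from the counts, and the deposited FPKM served as an alternative for ratios. Replicates of a group differed by a chi-square of 7.15 to 98.6 per gene, above sampling noise, so none was a copy of another. This cannot show that they came from separate mice. Each was counted as its own sample.

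All 10 enzymes are named. From the other lists, the genes called in most comparisons (up to 6 per list) could be named, and per enzyme the 2 protein-coding genes with the highest Pearson correlation of log2 CPM in kidney (prior count 2, mean of at least 1 CPM). Some genes that met these rules are not reported here. The enzymes and lists were chosen with earlier results of these data known. Alternatives were RLE and library-size scaling, other filters and fold thresholds, DESeq2, fits without the group not compared, a block for the replicate number, each library left out, and another collagen reference.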

Additional observations from a re-analysis of the deposited data

Results flagged for a closer look

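The effect of LepAb differed between kidney and lung for Plod1, 1 of the 10 enzymes, and for 4 of the 28 genes of other lists that could be named, by a test of the difference itself in the 12 libraries of injured organs. Of all genes tested 7.12% differed, so the count of enzymes is near the background. Organ, injury and day differ together in this comparison and cannot be told apart. For Plod1, the kidney effect minus the lung effect was 0.67 on the log2 scale (edgeR adjusted p = 0.0256), with -0.15 in kidney and -0.79 in lung. All 3 LepL libraries lay below all 3 IgGL libraries in lung, and all 3 LepK libraries below all 3 IgGK libraries in kidney. The difference was 1.27 for Eln (edgeR adjusted p = 0.0396), the gene of elastin, 0.95 for Adm (0.0419), the gene of the vasodilator adrenomedullin, and 1.74 for Slc2a1 (0.0138), the gene of a glucose transporter. For Postn, a matrix protein gene, it was -0.72 (0.0449), with -1.07 in kidney and -0.32 in lung. When each of the 12 libraries was left out in turn, the call was kept in 12 fits for Slc2a1, in 6 for Plod1, in 3 for Eln, in 2 for Postn and in 1 for Adm.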

How the results depend on the processing

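Over 2519 refits of single genes, 2200 kept their direction and side of the threshold, 254 lost and 50 gained a call, and 15 changed sign. The count of enzymes called in LepK against IgGK was 4, and 1 at an absolute log2 fold change over 1, 0 without both libraries with adrenal RNA, and 2 to 5 with 1 library left out. In LepL against IgGL it was 7, 0 with the replicate block, and 0 to 7 with 1 library left out. In IgGK against WTK it was 5 to 6 and in LepK against WTK 4 with 1 library left out. In kidney minus lung it was 1, and 2 without a filter, 2 with a mean of at least 1 CPM, 2 with DESeq2, and 0 to 3 with 1 library left out. Same-numbered libraries correlated by -0.03 to 0.18 in kidney and -0.06 to 0.07 in lung. Differently numbered ones correlated by -0.19 to 0.04 in kidney and -0.08 to 0.11 in lung. Between IgGK and LepK the same-numbered values were 0.18, 0.17 and -0.03. These overlapping ranges do not settle whether the numbers pair the libraries. With the replicate block the counts were 5, 4 and 4 in the kidney comparisons and 1 in kidney minus lung. In lung the block left 8 of the 10 enzymes at an unadjusted p under 0.05 and 4 genes called of all. Signs turned with library-size scaling for P4ha1 in IgGK against WTK (0.29), LepK against IgGK (-0.0861) and LepK against WTK (0.20), Plod1 in LepK against WTK (0.25), Slc2a1 in IgGK against WTK (0.27), Adm in LepK against IgGK (-0.0758), and Loxl2 (-0.0800) and Plod3 (-0.0715) in kidney minus lung. With 1 library left out, values that changed sign ranged in LepK against WTK from -0.0315 to 0.0137 for Plod1 and from -0.0837 to 0.0027 for P4ha1 (positive without WTK replicate 2), in LepL against IgGL from -0.33 to 0.32 for Mfap4 (positive without IgGL replicate 1 or LepL replicate 3), and in kidney minus lung from -0.68 to 1.74 for P4ha3 (negative without IgGK replicate 1, -0.27, or LepK replicate 1) and from -0.0188 to 0.34 for Loxl2 (negative without IgGL replicate 3). None of these values was called in the full fit, and the cause was not tested. The ratio counts stayed within 1.5 times with deposited FPKM and with Col1a1 alone.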
